A study of Mus musculus with 2 samples.

Results

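The 9 genes described here are Heph, Abcc2, Slc2a2, Slc13a1, Clec2h, Atp10b, Adipor2, Prdx6 and Aldh1b1. They are grouped under the label of nutrient transport and metabolic genes of absorptive gut cells, which is not a result of these data. The genes were chosen by name from the 140 genes of an imaging panel, with earlier results of these data known. All 9 were measured in every table. Transcripts were counted by MERSCOPE, which images single RNA molecules with barcoded probes and assigns them to cells outlined by a boundary stain. The sections, 10 µm thick, came from the fixed duodenum and colon of 1 female and 1 male C57Bl6 mouse on standard chow, and the labels give no mutation and no treatment for either animal. The sample labels give an age of 6 to 10 weeks and the tissue protocol an age of 6 weeks. Each animal was imaged as 2 regions, numbered 1 and 0, and no label ties a region to the duodenum or to the colon.

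Enterocytes and colonocytes take up nutrients, ions and water at their apical membrane, pass them to the blood side and carry enzymes that remove peroxides and aldehydes. The water channel Aqp8 and the chloride-bicarbonate exchanger Slc26a3 mark the absorptive cells of the colon surface, so their summed count in a cell served to sort cells into those with 0, 1 to 2 and 3 or more, the last called rich below. Hephaestin, the product of Heph, oxidises iron for its export to blood, Slc2a2 encodes the glucose and fructose transporter GLUT2, and Slc13a1 a sodium-sulfate cotransporter. Abcc2 encodes an apical export pump for conjugated compounds. Atp10b encodes a membrane lipid flippase, Adipor2 a receptor for adiponectin, Prdx6 a peroxiredoxin that reduces lipid peroxides, Aldh1b1 a mitochondrial aldehyde dehydrogenase, and Clec2h a C-type lectin-like protein of mouse gut epithelium.

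The tables were shallow and unequal in depth. Female region 1 held 13707 cells and 45942 panel counts, female region 0 held 6343 cells and 4288 counts, male region 1 held 4068 cells and 582 counts, and male region 0 held 7775 cells and 3048 counts. The median cell had 1 panel count in female region 1 and 0 in the other 3 tables. No cell identifier was shared between tables. Levels are given as counts per 10000 panel counts with exact 95% Poisson intervals in brackets, and ratios with exact binomial intervals. These intervals cover counting error only, and levels were not compared between genes because probes detect genes with different efficiency. Each table also held 40 blank barcodes, codes that match no gene. The highest blank had 46, 33, 2 and 9 counts in the same order of tables, which served as the background. The panel tests the absorptive label only in part. It held 3 of 8 listed epithelial markers, Ezr, Aqp8 and Slc26a3, and these summed to 10672 counts in female region 1, 61 in female region 0, 19 in male region 1 and 20 in male region 0. All 3 were over the highest blank in female region 1 and male region 1, and none was in female region 0 or male region 0. Listed immune and endothelial markers were not on the panel.

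The genes lie on 7 chromosomes, with Slc13a1, Adipor2 and Clec2h all on chromosome 6, and each is annotated as protein coding in RefSeq. RefSeq promoters of build GRCm38.p6, from 250 bases before to 50 bases after the start, were found for 5 of the 9 genes. A pair of them is shown for genes that were high in Aqp8+Slc26a3-rich cells (Clec2h and Adipor2) and a pair for genes whose level was higher in the region that almost lacked such cells (Slc2a2 and Abcc2). The Adipor2 stretch surrounds a start inside the annotated gene, which spans 119353150 to 119417699 on chromosome 6. Capitals mark TTTAT, the core word of the intestinal factor CDX, on either strand.
Clec2h (chr6:128662135-128662434, plus strand): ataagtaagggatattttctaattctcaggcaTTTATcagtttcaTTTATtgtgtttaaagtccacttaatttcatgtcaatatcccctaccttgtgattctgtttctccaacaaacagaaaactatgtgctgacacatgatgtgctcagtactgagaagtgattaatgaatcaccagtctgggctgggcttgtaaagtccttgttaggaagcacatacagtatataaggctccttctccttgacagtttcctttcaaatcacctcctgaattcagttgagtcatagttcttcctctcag
Adipor2 (chr6:119388685-119388984, minus strand): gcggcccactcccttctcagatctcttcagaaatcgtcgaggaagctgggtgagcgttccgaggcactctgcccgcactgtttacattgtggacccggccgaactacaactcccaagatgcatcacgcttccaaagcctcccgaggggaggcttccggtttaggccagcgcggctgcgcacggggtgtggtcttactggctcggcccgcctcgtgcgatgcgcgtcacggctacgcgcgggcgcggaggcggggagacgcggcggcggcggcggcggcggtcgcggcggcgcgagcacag
Slc2a2 (chr3:28697653-28697952, plus strand): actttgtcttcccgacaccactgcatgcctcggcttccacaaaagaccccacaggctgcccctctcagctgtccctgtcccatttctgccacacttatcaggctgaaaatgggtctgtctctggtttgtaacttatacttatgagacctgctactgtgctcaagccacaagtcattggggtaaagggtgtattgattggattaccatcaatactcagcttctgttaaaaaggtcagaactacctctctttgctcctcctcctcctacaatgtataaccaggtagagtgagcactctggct
Abcc2 (chr19:43782058-43782357, plus strand): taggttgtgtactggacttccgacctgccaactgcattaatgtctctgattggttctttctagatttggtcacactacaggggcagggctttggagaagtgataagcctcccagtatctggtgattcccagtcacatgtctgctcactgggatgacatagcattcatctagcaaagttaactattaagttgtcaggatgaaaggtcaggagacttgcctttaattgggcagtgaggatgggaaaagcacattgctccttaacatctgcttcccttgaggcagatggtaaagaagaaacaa
The Clec2h promoter held TTTAT at 2 places and the other 3 shown held none, against 40.01% of all 32851 promoters with at least 1. The TATA word TATAAA, which overlaps TTTAT on the opposite strand, is in 13.6% of promoters, the HNF1 half-site GTTAAT in 7.10% and the HNF4 word CAAAGTCCA in 0.475%, and none of these 3 words was in the 5 promoters of the group on either strand. The promoters differed in base composition, with a GC content of 38% for Clec2h, 68.7% for Adipor2, 48.0% for Slc2a2 and 45.0% for Abcc2.

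The 9 genes were detected very unevenly across the regions, and Clec2h was the one member over the highest blank in all 4 tables. In female region 1, 6 of the 9 lay over the highest blank, against 66.4% of the panel. In female region 0 it was 3 of 9 against 16.4%, in male region 1 it was 4 of 9 against 37.9%, and in male region 0 it was 3 of 9 against 32.9%. The members together made up 6.76% of panel counts in female region 1, 4.45% in female region 0, 4.98% in male region 1 and 2.92% in male region 0. Over all pairs of a member and a table, 16 of 36 passed. The plot of the members' levels by table shows that the filled points change from table to table.

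**Figure D1:**
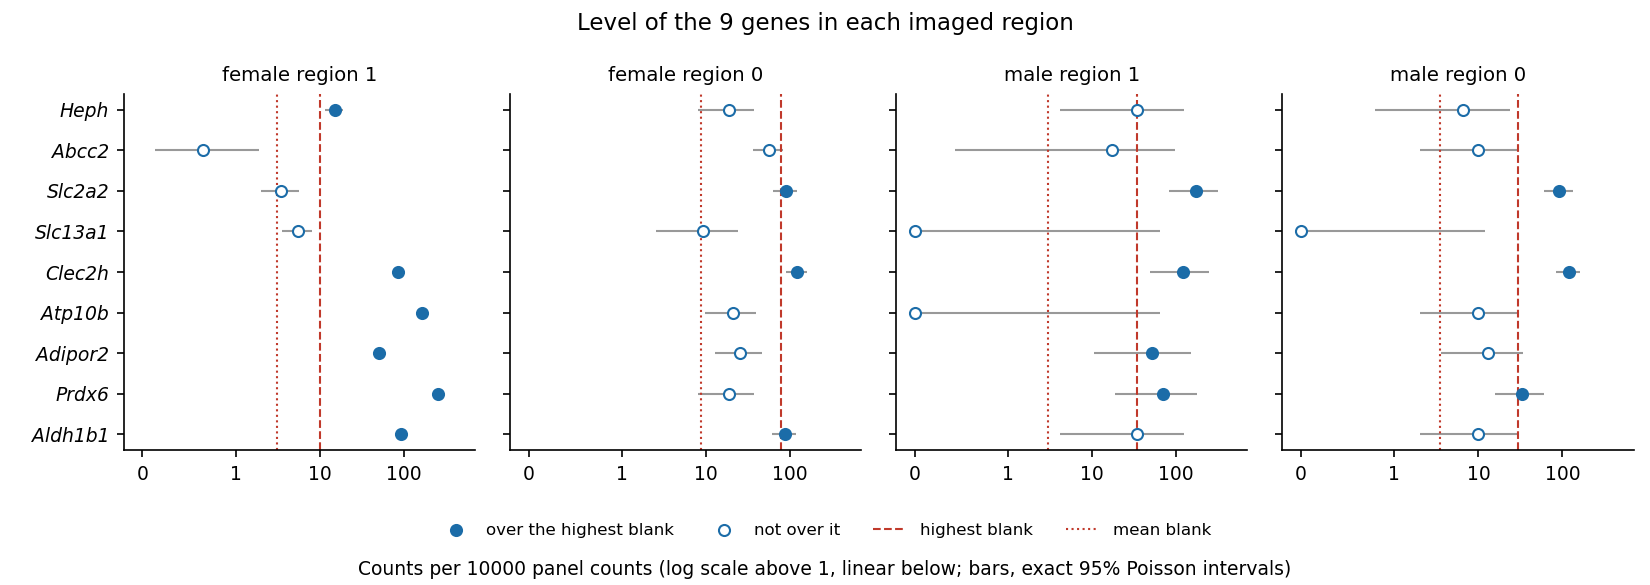
Counts per 10000 panel counts of the 9 genes in the 4 imaged regions, on an axis that is logarithmic above 1 and linear below it, with exact 95% Poisson intervals. Filled points lie over the highest blank barcode of that table (dashed line) and open points do not. Clec2h is filled in all 4 panels, and Slc13a1 and Abcc2 in none.

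Among the transporters, Slc2a2 was over the highest blank in every table except the deepest. Slc2a2 had 16 counts in female region 1, 38 in female region 0, 10 in male region 1 and 28 in male region 0. Its level was 3.48 per 10000 (1.99 to 5.66) in female region 1, 88.6 (62.7 to 122) in female region 0, 172 (82.4 to 316) in male region 1 and 91.9 (61.0 to 133) in male region 0. The interval of female region 1 thus lay below those of the other 3 tables, which overlap each other. Abcc2 had 3, 24, 1 and 3 counts in the same order, and its 24 counts in female region 0 exceeded 39 of the 40 blanks there but not the highest. Heph had 69, 8, 2 and 2 counts and passed the blank rule in female region 1 only, at 15.0 per 10000 (11.7 to 19) against 10.0 for the highest blank. Slc13a1 had 25 and 4 counts in the female regions and 0 in both male regions, where 0 counts allow up to 63.4 per 10000 in male region 1 and 12.1 in male region 0. It passed the rule in no table.

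The lipid and enzyme genes made up most of the members' counts in female region 1. Prdx6 had 1185 counts in female region 1, 8 in female region 0, 4 in male region 1 and 10 in male region 0. Its level was 258 per 10000 in female region 1 (243 to 273), 18.7 in female region 0 (8.05 to 36.8), 68.7 in male region 1 (18.7 to 176) and 32.8 in male region 0 (15.7 to 60.3), so female region 1 stood above the rest. Atp10b had 757 counts in female region 1, 9 in female region 0, 0 in male region 1 and 3 in male region 0, and passed the blank rule in the first of these alone. Adipor2 had 234, 11, 3 and 4 counts in the same order, and passed in female region 1 and male region 1. Aldh1b1 had 428, 37, 2 and 3, and passed in both female regions, at 93.2 per 10000 (84.5 to 102) in region 1 and 86.3 (60.8 to 119) in region 0.

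Clec2h had 390 counts in female region 1, 52 in female region 0, 7 in male region 1 and 36 in male region 0. Its level was 84.9 per 10000 (76.7 to 93.7) in female region 1, 121 (90.6 to 159) in female region 0, 120 (48.4 to 248) in male region 1 and 118 (82.7 to 164) in male region 0, and each of these intervals overlaps the others. In male region 0, however, 18 of its 36 counts came from 1 cell, which also held 69 counts of the growth factor receptor Fgfr1 among 129 panel counts. The next cells in order held 6 and 3 Clec2h counts, with 5 and 15 counts of Fgfr1. The Poisson interval takes counts as independent, so it is too narrow for this region. Without the first cell Clec2h still passed the highest blank of 9 there, and leaving out more cells was not tested. A single animal of each sex was imaged. Summed over both regions, Slc2a2 stood at 10.8 per 10000 in the female and 105 in the male, and Atp10b at 152 in the female and 8.26 in the male, but the female sum is weighted by the deep region 1, and female region 0 alone stood at 88.6 for Slc2a2 and 20.99 for Atp10b. Sex, animal, region and depth cannot be told apart.

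Prdx6, Clec2h, Atp10b and Adipor2 stood higher in cells rich in Aqp8 and Slc26a3 than in cells with neither, in female region 1. There 650 cells had 3 or more Aqp8 plus Slc26a3 counts, 1135 had 1 to 2 and 11922 had 0. Levels in these groups are per 10000 other panel counts, with Aqp8 and Slc26a3 left out of the total. Prdx6 stood at 83.6 (72.3 to 96.1) with 0, 323 (277 to 373) with 1 to 2 and 823 (767 to 882) with 3 or more. These intervals do not overlap, and the last group held 68.3% of all Prdx6 counts in the table. Clec2h stood at 40.1 (32.4 to 49.1), 145 (115 to 180) and 219 (190 to 250) in the same order of groups. Atp10b stood at 118 (105 to 133), 224 (186 to 267) and 361 (325 to 401). Both show the same ordered rise as Prdx6, with no overlap between neighbouring groups.

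Adipor2 stood at 33.7 (26.7 to 42.0), 75.3 (54.2 to 102) and 115 (94.7 to 138), with overlap between the upper pair of groups. Aldh1b1 stood at 90.4 (78.7 to 103), 109 (83.6 to 140) and 158 (134 to 185), with each neighbouring pair overlapping. Heph stood at 11.5 (7.59 to 16.8), 12.5 (5.04 to 25.8) and 35.6 (24.8 to 49.5). The blanks moved too: the highest blank stood at 10.2, 14.3 and 31.5 per 10000 in the 3 groups, so Heph was under it with 1 to 2 and only just over it with 3 or more, while the other 5 members exceeded it in each group. Slc2a2 had 7, 2 and 7 counts in the 3 groups, Slc13a1 had 13, 3 and 9, and Abcc2 had 2, 1 and 0, all below the highest blank. Depth differed with the groups, at a median of 0, 4 and 12 other panel counts per cell. The plot of levels by group sets the members beside the highest blank.

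**Figure D2:**
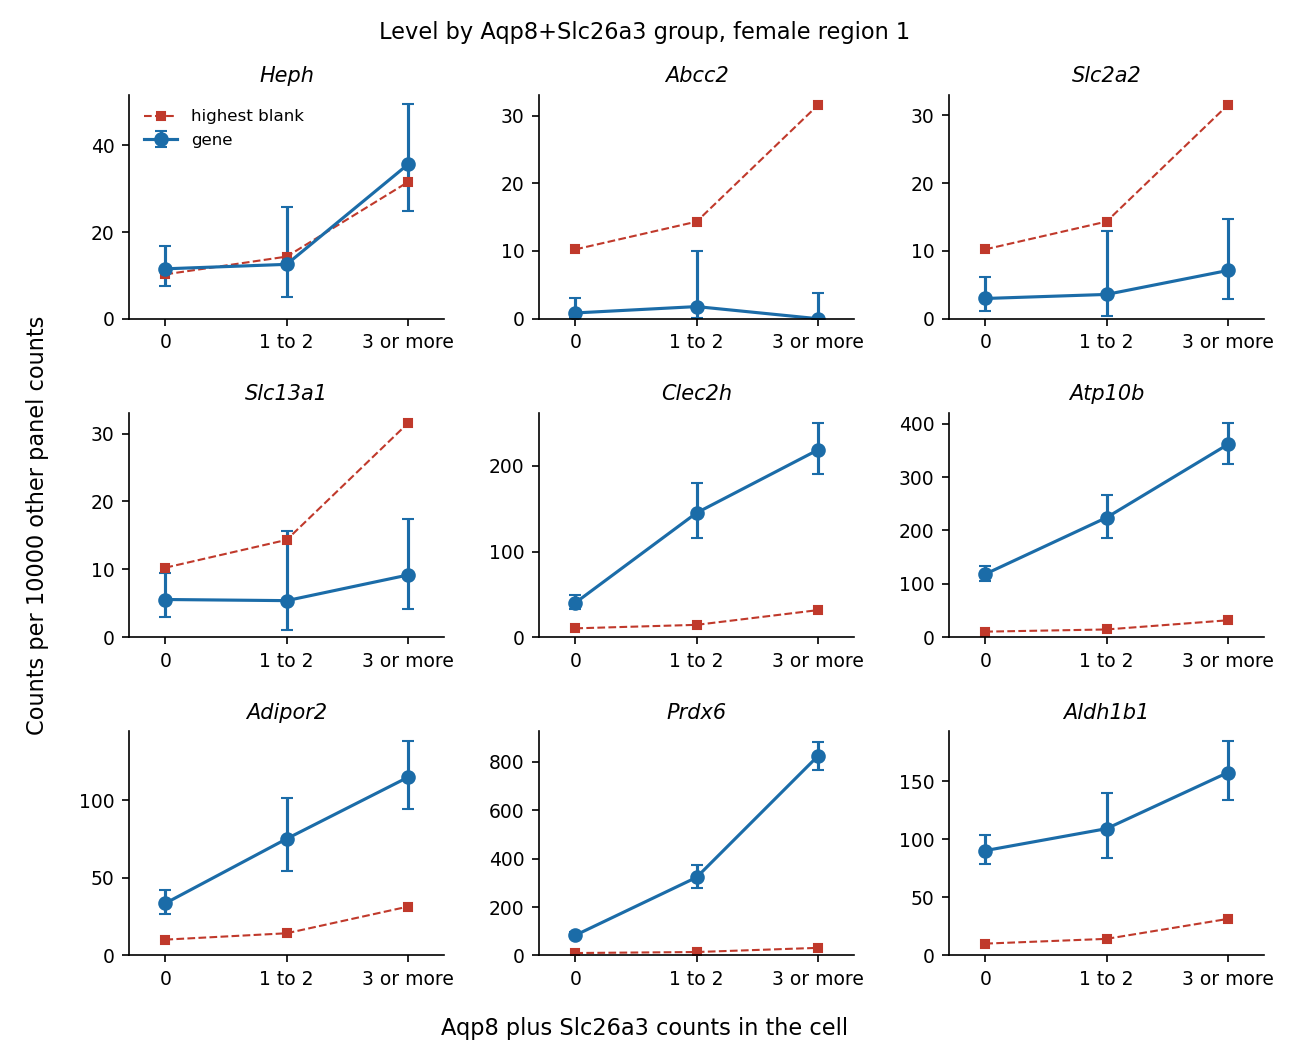
Level of each of the 9 genes in cells of female region 1 with 0, 1 to 2 and 3 or more Aqp8 plus Slc26a3 counts, in counts per 10000 other panel counts (linear axis from 0, a different range in each panel; bars, exact 95% Poisson intervals; squares, highest blank of the same cells). Prdx6 stands at 83.6, 323 and 823 in the 3 groups, while Slc2a2, Slc13a1 and Abcc2 stay below the blank.

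Set against the panel, the 6 members with enough counts ranked from 1 to 18 in this contrast. The members were chosen with earlier results of these data known, so their ranks are only a description. Prdx6 had the highest ratio of 3 or more over 0 among the 85 genes with enough counts, 9.84 (8.41 to 11.6), followed by Ezr, the membrane-cytoskeleton linker, at 7.14 and by Clec2h at 5.46 (4.26 to 7.03). Adipor2 ranked 6 at 3.41 (2.54 to 4.61), Heph 7 at 3.09 (1.82 to 5.31), Atp10b 8 at 3.06 (2.60 to 3.59) and Aldh1b1 18 at 1.74 (1.41 to 2.16). A ratio of 2 or more was reached by 16.5% of the 85 genes and one of 0.5 or less by 50.6%, and the median over the 85 was 0.478. The first 5 members of this order reached 2-fold, but Heph, with 35 counts in the rich cells and 27 in the 0 group, had the 50 counts needed only through the rich cells, and 3 members had too few, so the tally over members is only a description. The blank barcodes together had a ratio of 2.01 (1.68 to 2.42), above that of Aldh1b1. With Aqp8 and Slc26a3 kept in the total, 3 members reached 2-fold, namely Prdx6, Clec2h and Adipor2. With each cell thinned to 5 other counts, the ratio was 9.80 for Prdx6 and 2.39 for Heph (0.874 to 6.34), which then includes 1.

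**Figure D3:**
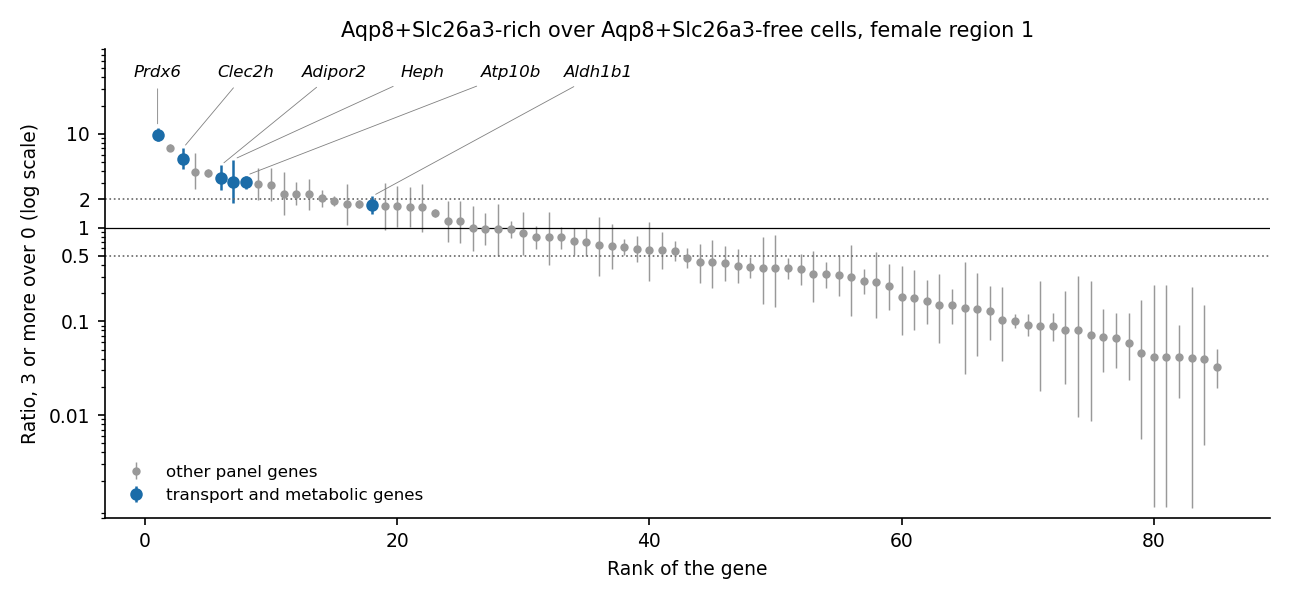
Ratio of the level in cells with 3 or more Aqp8 plus Slc26a3 counts over that in cells with 0, female region 1, for 85 panel genes ranked by it (log scale; bars, exact 95% binomial intervals; dotted lines, 2-fold either way). The 6 named genes hold ranks 1, 3, 6, 7, 8 and 18, and 43 of the 85 genes lie at 0.5 or below.

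Other genes of absorption and of the epithelium did not all follow the members. Of a list of 37 enterocyte absorption and metabolism genes, 3 were on the panel, and neither of the 2 with enough counts was higher at 2-fold. The transporter gene Slc12a8 stood at 10.2 per 10000 with 3 or more and 153 with 0, and the guanylin receptor gene Gucy2c at 144 with 3 or more and 151 with 0. Of 7 genes tested from a list of epithelial genes, which includes both of these, 2 were higher at 2-fold (Ezr and the apical constriction gene Shroom3) and 3 were lower: Slc12a8, the chloride channel gene Cftr at 2.03 with 3 or more and 50.8 with 0, and the potassium channel gene Kcnn4 at 6.10 with 3 or more and 148 with 0. All 3 stromal markers and both muscle markers were lower at 2-fold. The neuronal marker Snap25 went the other way, with a ratio of 1.77 (1.06 to 2.94), short of 2-fold and below the 2.01 of the blank barcodes together. The 1 glial marker with enough counts had a ratio of 1.17. The part of the stromal and muscle transcripts of the 0 group in the members' ratios was not tested.

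The animals could be compared with a test only weakly, because Aqp8+Slc26a3-rich cells came almost entirely from 1 table. Female region 0 held 1 cell with 3 or more and the male regions 0, and cells with 1 to 2 numbered 24 in female region 0, 14 in male region 1 and 16 in male region 0. In the male cells with 1 to 2, the members' counts were 1 of Prdx6 in region 1 and 2 of Prdx6 in region 0. The edgeR quasi-likelihood test on counts summed per animal and cell group, with the animal as a block, had 5 sums and 104 genes. The sums join both regions, so the female 0 group holds region 0 cells (3732 of its 27180 other panel counts), whereas the female rich cells are from region 1 but for 1 cell. For 3 or more against 0, a contrast that rests on the female alone, it called 0.962% of genes higher and 2.88% lower at an adjusted p of 0.05, and 0 of the 7 members tested. Without adjustment, 29 of the 104 had a p below 0.05, Prdx6 being the one member among them. The log2 fold change was 3.33 ± 1.37 (SE) for Prdx6 with an adjusted p of 0.0805, 1.65 ± 1.35 for Adipor2, 1.63 ± 1.58 for Atp10b, 1.41 ± 0.92 for Heph, 1.22 ± 1.71 for Clec2h, 0.65 ± 1.5 for Aldh1b1 and -1.08 ± 1.09 for Slc2a2 (adjusted p from edgeR of 0.351 or more for the last 6). For Slc2a2 the ratio within female region 1 was 2.39 (0.714 to 7.97), opposite in direction to this test. The mucin gene Muc6, called lower, had 610 counts in the 0 group of female region 0 and 9 in that of female region 1. The median over the 7 members was 1.41 and over all 104 genes -0.99, a description only, since the members were chosen with earlier results known.

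For 1 to 2 against 0, the only contrast with cells of both animals, edgeR called 0 of 104 genes, 4 having an unadjusted p below 0.05. The Prdx6 log2 fold change was 1.76 ± 1.14 (SE) with an adjusted p of 0.991. These outcomes depended on the settings. DESeq2 tested the same 104 genes and the fits with 1 grouping gene 105, 7 of them members each time. For 3 or more, most genes called by DESeq2 or with Aqp8 alone were lower, and the member calls are only a description. DESeq2 on the same sums called 30 genes for 3 or more, among them Prdx6 (adjusted p 0.00397) and Heph (adjusted p 0.0421), and 5 genes for 1 to 2 with 0 members. With cells grouped by Aqp8 alone, edgeR called 60 genes for 3 or more, 5 of them members (Prdx6, Adipor2, Clec2h, Atp10b and Heph), and 22 for 1 to 2, with Prdx6 and Adipor2 among them. With Slc26a3 alone it called 1 gene in each contrast and 0 members.

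Within the Aqp8+Slc26a3-rich cells of female region 1 the members' levels were also compared by the amount of these transcripts, a split made after the main groups had been seen. In the 220, 228 and 202 cells with 3 to 4, 5 to 9 and 10 or more, Prdx6 stood at 656 (542 to 787), 863 (758 to 978) and 857 (780 to 940) per 10000, the first interval overlapping the others only at its upper end. Atp10b stood at 337, 349 and 376 and Adipor2 at 103, 130 and 111, with overlapping intervals throughout. Clec2h stood at 177, 222 and 231 and Aldh1b1 at 148, 130 and 176, also with overlap. Heph stood at 22.8 (6.22 to 58.4), 49.3 (26.95 to 82.7) and 32.5 (18.9 to 52.0), again with overlap. The highest blank of the same cells stood at 34.2, 35.2 and 28.6, so Heph was under it with 3 to 4 and close to it with 10 or more. Cells with Aqp8 above Slc26a3 numbered 360 and those with Slc26a3 above Aqp8 numbered 232. Between these, Clec2h stood at 251 in the Aqp8-led and 177 in the Slc26a3-led cells, a ratio of 1.42 (1.04 to 1.97), the one member whose interval excluded 1. The ratio was not computed for the other panel genes, so the Clec2h value is only a description. For Prdx6 the levels were 835 and 829, a ratio of 1.01 (0.866 to 1.17).

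The members were then placed among 4 groups of cells set by marker transcripts, each cell meeting 1 rule at 3 or more counts. In female region 1 these were 637 cells by Aqp8+Slc26a3, 502 by the matrix and stromal genes Fn1, Vim and Pdgfra, 232 by the muscle genes Des and Dmpk, and 6 by Cftr and Kcnn4. Another 83 cells met several rules and were left out. The Aqp8+Slc26a3 group is thus the rich cells described above, less those that met several rules. Its high levels repeat the earlier contrast and are no separate support. Prdx6 stood at 858 per 10000 (799 to 920) in the Aqp8+Slc26a3 cells and 136 (94.2 to 190) in the Fn1+Vim+Pdgfra cells, and had 0 counts in the Des+Dmpk cells, which allows up to 47.3. Atp10b stood at 376 in the Aqp8+Slc26a3 cells, 104 in the Fn1+Vim+Pdgfra cells and 51.3 in the Des+Dmpk cells. Clec2h stood at 222, 52.0 and 51.3 and Adipor2 at 119, 48.0 and 25.6 in the same order of groups. The intervals of the Aqp8+Slc26a3 cells lay above those of the other 2 groups for Prdx6, Atp10b, Clec2h and Adipor2. The share of panel genes with such a pattern was not computed. Heph stood at 38.1 (26.5 to 52.9), 8.0 (0.969 to 28.9) and 25.6 (3.11 to 92.6), with overlap between all 3 groups. In the Des+Dmpk cells the highest blank stood at 89.7, over each of these 5 members.

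Aldh1b1 differed from the other members in these groups. It stood at 163 per 10000 (138 to 191) in the Aqp8+Slc26a3 cells, 76.0 (45.8 to 119) in the Fn1+Vim+Pdgfra cells and 179 (98.1 to 301) in the Des+Dmpk cells, and contributed 3 of the 44 other counts of the Cftr+Kcnn4 cells. With the minimum lowered to 2, the Cftr+Kcnn4 group grew to 46 cells, in which Aldh1b1 stood at 296 (142 to 544) and Atp10b at 325 (162 to 582), while Prdx6, Adipor2 and Heph had 0 counts, each allowing up to 109. The bars by marker group show this contrast between Prdx6 and Aldh1b1. How much of the stromal and muscle cells' level came from transcripts of neighbouring epithelial cells was not tested.

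**Figure D4:**
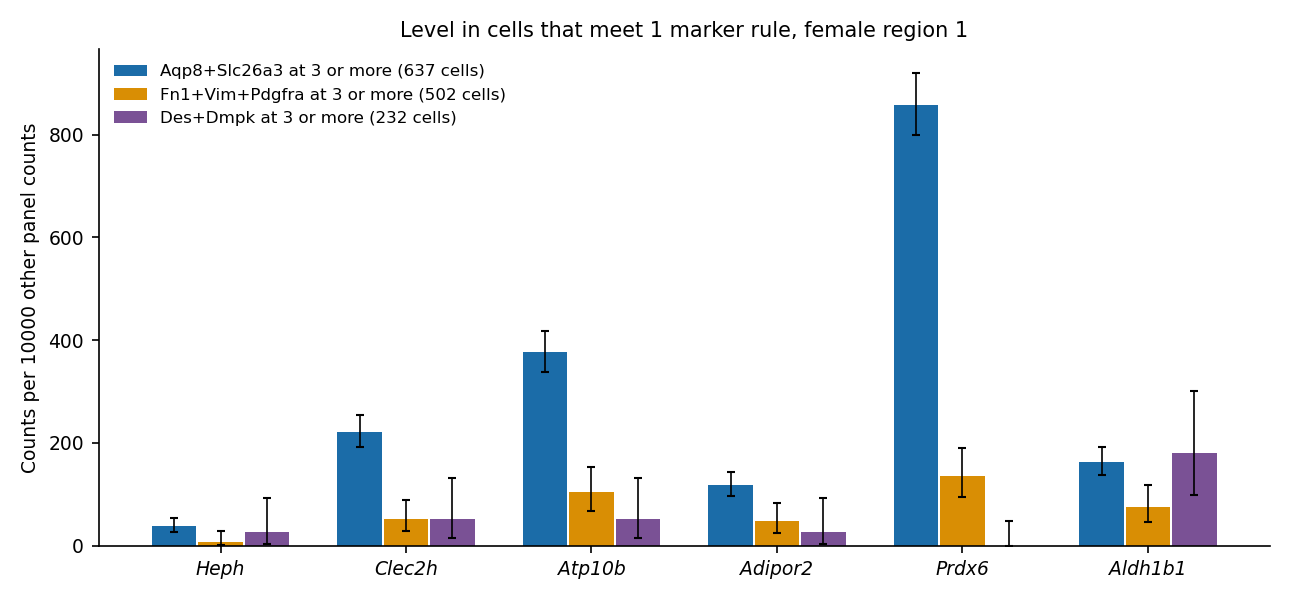
Level of 6 genes in cells of female region 1 that meet exactly 1 marker rule, in counts per 10000 other panel counts (bars from 0, with exact 95% Poisson intervals). Prdx6 stands at 858 in Aqp8+Slc26a3 cells, 136 in Fn1+Vim+Pdgfra cells and 0 in Des+Dmpk cells, whereas Aldh1b1 stands at 163, 76.0 and 179.

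Co-detection in single cells, set against depth, placed Prdx6 first and Aldh1b1 last with Aqp8 and with Slc26a3. The grouped cells gave the same ends of the order, but these 2 genes defined the groups in the same table. The match is therefore built in and is no separate support. Among the 1256 cells of female region 1 with at least 10 panel counts, 443 held Prdx6, and 372 of these also held Aqp8, where 247 were predicted from each cell's total alone, a ratio of 1.5 (1.35 to 1.66). The ratio with Aqp8 was 1.38 (1.18 to 1.61) for Clec2h, 1.31 (1.06 to 1.60) for Adipor2 and 1.24 (1.09 to 1.41) for Atp10b. For Heph it was 1.18 (0.805 to 1.66) and for Aldh1b1 1.09 (0.909 to 1.29), and both intervals include 1. With Slc26a3, the ratio was 1.46 for Prdx6, 1.32 for Adipor2, 1.31 for Clec2h, 1.27 for Atp10b, 1.17 for Heph and 1.06 for Aldh1b1. Raising the minimum to 20 counts left 1 of the 6 intervals above 1, that of Prdx6. All 6 members were found with Fn1 less often than depth predicted, at ratios of 0.447 for Clec2h to 0.563 for Heph. With Cftr, the ratio was 0.198 (0.0539 to 0.506) for Prdx6 and 0.963 (0.462 to 1.77) for Aldh1b1.

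Members were also found with each other. Clec2h and Prdx6 shared 125 cells against 90.8 predicted, a ratio of 1.38 (1.15 to 1.64), and Atp10b and Clec2h shared 96 against 70.0, a ratio of 1.37 (1.11 to 1.67). Atp10b with Prdx6 had a ratio of 1.30 (1.12 to 1.5) and Adipor2 with Prdx6 1.32 (1.03 to 1.66). These were 4 of the 15 pairs among the 6 members, and the intervals of the other 11 include 1. Over 304 pairs of a member and a panel gene with enough cells, 33 intervals (10.9%) lay above 1. The 3 panel genes with the highest ratio for each member were picked from these, so their ratios are a description, with no adjustment. Of these 18 pairs, 3 had an interval above 1, namely Prdx6 with the tubulin gene Tubb4b at 1.67 (1.12 to 2.38), Clec2h with the scaffold gene Grip1 at 2.05 (1.12 to 3.44) and Aldh1b1 with the potassium channel gene Kcnq1 at 1.67 (1.09 to 2.44). The intervals of all other leading pairs include 1. Prdx6 also had Fign and Gria2 as leading partners, Clec2h had Tubb4b and Syn3, and Aldh1b1 had Syt4 and Sema5a. For Heph the leading partners were Prdx6, Aldh1b1 and Ezr, for Atp10b Slc13a1, Pclo and Shroom2, and for Adipor2 Syt4, Abca8b and Pcsk5. All of these cells share 1 table and the predictions share each cell's depth.

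Between the female's regions, Prdx6 and Atp10b lay on the side of region 1 and Slc2a2 and Abcc2 on the side of region 0. Per 10000 panel counts, Prdx6 was higher in region 1 than in region 0 by a ratio of 13.8 (6.99 to 32.1), Atp10b by 7.85 (4.11 to 17.2) and Adipor2 by 1.99 (1.09 to 4.03). Slc2a2 was higher in region 0, by a ratio of region 0 over region 1 of 25.4 (13.9 to 48.9), and Abcc2 by 85.7 (26 to 445), this last ratio resting on 24 counts in region 0 and 3 in region 1. In region 1 both lay under the highest blank of 10.0 per 10000, Slc2a2 at 3.48 and Abcc2 at 0.653 beside a mean blank of 3.10, so the size of these ratios is not determined. In region 0 the highest blank stood at 77.0 per 10000. Abcc2 lay under it there too, at 56.0, and the interval of Slc2a2, at 88.6 (62.7 to 122), includes it. With the mean blank subtracted, the Slc2a2 ratio of region 0 over region 1 was 209.8 and Abcc2 gave none. Prdx6, Atp10b and Adipor2, with 8, 9 and 11 counts in region 0, lay under its highest blank of 33 counts. The size of their ratios is therefore not determined either. With the mean blank subtracted, their ratios of region 1 over region 0 were 25.6, 13.1 and 2.82. Of the 7 members with at least 50 counts over both regions, 2 were higher at 2-fold in region 1, against 40.6% of 101 such genes, and 22.8% of these genes were higher in region 0. Slc2a2, with 38 counts in region 0 and 16 in region 1, had enough counts only through region 0. Prdx6 and Atp10b, with 8 and 9 counts in region 0, had enough only through region 1. The tally is therefore only a description and is not read against that share. The mean blank of region 0 stood at 8.69. The ratios of region 1 over region 0 of the remaining members depended on the scale. Clec2h had a ratio of 0.70 (0.523 to 0.954) per 10000 panel counts but 3.47 (2.59 to 4.73) per cell and 2.45 (1.23 to 5.74) in cells with at least 10 counts. Aldh1b1 had 1.08 (0.771 to 1.55) per 10000, 5.35 (3.82 to 7.71) per cell and 3.75 (1.59 to 11.7) in cells with at least 10 counts. Heph had 0.805 (0.387 to 1.94) per 10000 and 3.99 (1.92 to 9.61) per cell, and Slc13a1 0.583 (0.201 to 2.31) per 10000 and 2.89 (0.999 to 11.4) per cell. With the mean blank subtracted, the ratio was 1.195 for Heph and 3.65 for Slc13a1. Per cell, Slc2a2 and Abcc2 remained higher in region 0, by 5.13 and 17.3. In the male, the ratios per 10000 panel counts of region 1 over region 0 had intervals that include 1 for all members but Slc13a1, which had 0 counts in both. Per cell, the male Clec2h ratio was 0.372 (0.140 to 0.847), but 18 of the 36 Clec2h counts of region 0 lay in 1 cell. In cells with at least 10 counts the male Slc2a2 ratio was 30.7 (3.52 to 368). That Slc2a2 ratio rests on only 4 such cells in region 1, 3 of them with Slc2a2. Region 0 held 55 such cells, 2 with Slc2a2. At 2-fold per 10000, 13.3% of the 15 genes with enough counts were higher in region 1 and 20% in region 0.

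The cells that held Slc2a2 and Abcc2 in female region 0 differed from each other. The 35 cells with Slc2a2 carried 129 counts of the synaptic gene Snap25 and 102 of the postsynaptic scaffold gene Dlgap1. In 74 cells with 3 or more Snap25+Dlgap1 counts, a split made after the values were seen, Slc2a2 had 18 counts, or 202 per 10000 counts of genes other than Snap25, Dlgap1 and Muc6 (120 to 319), while the highest blank there had 24 counts. In the 6208 cells with neither 3 such counts nor 3 of the mucin gene Muc6, Slc2a2 had 20 counts, or 104 per 10000 (63.7 to 161), against 13 for the highest blank. Abcc2 had 0 counts in the Snap25+Dlgap1 cells and all 24 in the remaining cells, at 125 per 10000 (80.2 to 186), which is over the highest blank of those cells. The 22 cells that held Abcc2 carried 3 counts of Ezr, 3 of Gucy2c and 3 of the protease gene Pcsk5, which no other panel gene exceeded. Clec2h had 5 counts in the Snap25+Dlgap1 cells and 47 in the remaining cells, and Aldh1b1 3 and 34. In the male regions, the Snap25+Dlgap1 cells held 5 of 10 Slc2a2 counts in region 1, in 7 cells, and 4 of 28 in region 0, in 28 cells. With the Snap25+Dlgap1 cells left out, 16 of 36 pairs of a member and a table were again over the highest blank, but not the same ones: Abcc2 in female region 0 passed (24 counts against 13) and Prdx6 in male region 0 no longer did (6 against 9).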

How the data were processed

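The authors deposited 1 table of counts per imaged region, each value being the count of decoded transcripts of 1 gene in 1 segmented cell, with 140 genes and 40 blank barcodes. Per the submitters' processing notes Seurat was used. Its role is not given in the sources used here, nor are the settings of decoding and segmentation, and no cell or doublet filter was applied here. The members and lists were chosen with earlier results of these data known.

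Counts were summed per table or cell group. A table is 1 sample, so within tables there is no test. Ratios between cell groups or regions used genes with at least 50 counts over both sides, and 2-fold served as the call. The edgeR quasi-likelihood test (sums under 50 counts left out, genes with at least 50 counts, library size without Aqp8 and Slc26a3, no TMM, Benjamini-Hochberg over all genes) had 1 residual degree of freedom per gene. With 1 animal of each sex, p-values rest on 2 animals for 1 to 2 against 0, and for 3 or more on 1 sum, from the female, taken to vary like the others. The scripts were tested on simulated counts. Genes named are the 9 members, the grouping genes, the 3 leading co-detection partners of each member over the highest blank of the deepest table (at least 5 predicted and 10 observed cells), and examples from the lists. Ezr, Fgfr1, Snap25, Dlgap1 and other genes shown beside a member outside this rule were chosen after their values were seen. Motifs searched were plain words. Tests ran in edgeR 4.0.16 and, as an alternative, DESeq2 1.42.0 under R 4.3.3, and intervals in scipy 1.17.1 under Python 3.11.15.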

Additional observations from a re-analysis of the deposited data

How the results depend on the processing

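Of the counts of members or genes recomputed under the alternatives, 18 stayed within 1.5 times of their main value or on their side of the threshold, 4 moved further, 6 gained calls and 5 lost them. The number of members at 2-fold or more in Aqp8+Slc26a3-rich cells was 5, where 16.5% of the 85 panel genes reached it. It was 3 with Aqp8 and Slc26a3 kept in the total, where the panel share was not computed. The 5 include Heph, which had enough counts only through the rich cells. The ratios themselves kept their direction in all 8 alternatives for each of the 6 members, ranging from 6.13 to 75.7 for Prdx6 and from 1.11 to 13.4 for Aldh1b1, the upper ends being per cell. The intervals of Aldh1b1 with both genes kept in the total (0.893 to 1.37) and of Heph after thinning (0.874 to 6.34) came to include 1. The number of members higher at 2-fold in female region 1 than in region 0, of all 9, was 2, and 7 per cell, 4 with the mean blank subtracted and 5 in cells with at least 10 panel counts, where the shares of the 101 panel genes were 40.6%, 78.2%, 37.6% and 63.4%. The Clec2h ratio between these regions reversed, being 0.70 per 10000 panel counts but 3.47 per cell and 2.45 in cells with at least 10 panel counts, and the cause was not tested. For 3 or more against 0, the edgeR count of 4 called genes became 0 with TMM factors, 0 with the number of cells as library size, 0 without the animal block (replicate block), 1 without a filter on low counts, 60 with Aqp8 alone and 1 with Slc26a3 alone, and DESeq2 called 30. For 1 to 2 against 0, the count of 0 became 5 with DESeq2, 1 in cells with at least 10 panel counts, 22 with Aqp8 alone and 1 with Slc26a3 alone. Leaving out either animal left no residual degree of freedom, so those fits were not run. The blank rule gave 16 pairs of a member and a table, 19 with the mean plus 2 SD and 14 without the cell with most counts. Depth limits all tables, female region 1 the least, where the median cell had 1 panel count.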
